A study of Mus musculus with 12 samples.

Results

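The contractile machinery of myofibroblasts and the transforming growth factor beta (TGF-β) pathway were followed through 36 genes, chosen by gene symbol with earlier results of these data known; the rule itself uses no measured value. Of these, 21 encode contractile and cytoskeletal proteins and 15 encode TGF-β ligands, latency proteins, receptors, SMADs, inhibitors and a target. All 36 were found among the 55413 genes of the table, and all 36 passed the filter on low values (a mean of at least 3 over the 12 libraries) that 16459 genes passed. Each of the 36 also averaged at least 3 in every group, so none entered through a single group.

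RNA was sequenced from 12 cultures of cells grown out of paws of BALB/c mice, an inbred strain, after injection of monosodium urate (MSU) crystals, the crystals of gout. Left paws, called primed, were injected on days 0 and 9, and right paws, called non-primed, on day 9 alone, so every group had been exposed to crystals and side went together with priming. There were 3 libraries in each of 4 groups: primed paw cells given 1 µM I-BET151 for 24 h in culture (in vitro), primed paw cells of mice dosed daily with 20 mg/kg I-BET151, starting 1 day ahead of priming (in vivo), primed paw cells of vehicle-treated mice, and non-primed paw cells of vehicle-treated mice. Cells of 2 to 3 paws were pooled, grown for 5 passages and labelled synovial fibroblasts, and the labels put RNA extraction on day 18. I-BET151 blocks the bromodomains with which BET proteins bind acetylated histones. Values are the authors' regularized log2 (rlog) expression, on a scale of powers of 2, and they are not scaled by gene length, so levels are compared between libraries and not between genes. The labels do not say that the libraries of a group came from separate mice, so p-values measure the spread between these cultures.

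Myofibroblasts are fibroblasts that have built stress fibres of smooth muscle actin and can pull on their matrix. TGF-β is secreted bound to a latency complex, is released by proteases and pulling integrins, and signals through type I and type II receptors that phosphorylate SMAD2 and SMAD3, which enter the nucleus with SMAD4. Many contractile genes are also driven by serum response factor (SRF), which binds the CArG box in their promoters together with actin-sensing MRTF coactivators. In joints, fibroblasts of the synovial lining and sublining produce the matrix and can take on this contractile state.

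The promoters that carry this box in the members are shown because many contractile genes are classical SRF genes. RefSeq (GRCm38.p6) windows of 300 bases, from 250 before to 50 after the start of transcription, were available for 27 of the 36 members. Actg2, Myh11, Skil, Smad2, Smad4, Smad7, Tagln, Tgfb3 and Tgfbr3 had none. A CArG box, searched on both strands, was found in the windows of 4 members (14.8% of the 27), namely Myl9, Cnn2, Vcl and Srf, and in 1.81% of 27025 RefSeq genes. Matches with a single G or C in the A/T core, counted apart from full boxes, were found in Acta2, Myl9, Tgfbr2 and Ltbp1 (14.8%, against 9.69% of all genes). The SMAD-binding letters CAGAC, searched on both strands, which do not overlap the CArG box, were found in 14 members (51.9%), close to the 53.2% of all genes. A match is a description of these letters and not a site shown to be bound. The 250 bases before the start are printed 5′ to 3′ on the strand of the gene, with CArG boxes in capitals. For Acta2, chr19:34255374-34255623 on the minus strand, the capitals mark the pair of matches with a single G or C in the core, at positions -84 to -75 and -34 to -25 from the start.
Acta2: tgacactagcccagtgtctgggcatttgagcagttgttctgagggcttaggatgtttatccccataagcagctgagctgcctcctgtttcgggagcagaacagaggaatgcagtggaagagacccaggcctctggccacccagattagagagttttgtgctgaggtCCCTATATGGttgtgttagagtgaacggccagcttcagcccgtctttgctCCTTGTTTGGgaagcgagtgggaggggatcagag
Myl9 (chr2:156775214-156775463, plus strand) has its box at -161 to -152.
Myl9: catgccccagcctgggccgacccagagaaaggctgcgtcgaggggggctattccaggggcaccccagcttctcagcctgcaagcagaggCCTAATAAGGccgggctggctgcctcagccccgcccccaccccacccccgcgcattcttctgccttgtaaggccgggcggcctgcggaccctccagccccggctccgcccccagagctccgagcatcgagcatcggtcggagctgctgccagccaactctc
Cnn2 (chr10:79988350-79988599, plus strand) has its box at -56 to -47.
Cnn2: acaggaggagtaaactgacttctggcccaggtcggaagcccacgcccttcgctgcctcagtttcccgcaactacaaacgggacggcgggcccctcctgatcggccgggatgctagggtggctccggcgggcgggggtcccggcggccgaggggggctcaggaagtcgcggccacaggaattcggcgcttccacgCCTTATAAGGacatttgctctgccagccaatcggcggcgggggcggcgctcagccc
Vcl (chr14:20929148-20929397, plus strand) has its box at -227 to -218.
Vcl: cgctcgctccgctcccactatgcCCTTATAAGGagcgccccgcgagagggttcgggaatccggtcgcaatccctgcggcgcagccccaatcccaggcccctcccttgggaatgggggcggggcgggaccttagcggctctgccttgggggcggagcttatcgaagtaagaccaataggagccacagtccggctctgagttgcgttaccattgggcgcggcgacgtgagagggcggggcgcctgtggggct
Srf itself (chr17:46556163-46556412, minus strand) has boxes at -82 to -73 and -62 to -53.
Srf: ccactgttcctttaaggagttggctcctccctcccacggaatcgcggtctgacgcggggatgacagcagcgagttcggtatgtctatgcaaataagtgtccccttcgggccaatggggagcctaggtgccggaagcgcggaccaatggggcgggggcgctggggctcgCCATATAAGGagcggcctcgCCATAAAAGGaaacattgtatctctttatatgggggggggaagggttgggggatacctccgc

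Before any comparison, several libraries stood apart or went against their labels. The mean of 15 melanocyte markers was 5.61 to 5.98 in the in vitro libraries, 5.62 in in vivo 1, 12.61 and 12.60 in in vivo 2 and 3, 6.21 to 6.69 in primed vehicle and 12.60 to 13.97 in non-primed vehicle. The mean of 10 fibroblast markers ran the other way, with 14.67 to 15.20 in vitro, 14.90, 9.15 and 9.55 in vivo, 15.05 to 15.51 in primed vehicle and 10.12, 11.09 and 6.32 in non-primed vehicle, so 5 libraries labelled synovial fibroblasts were rich in pigment cell transcripts. Brd2 and Hexim1, genes that rise under BET inhibitors, averaged 16.65 in vitro and 16.34 in vivo (Brd2) and 13.97 in vitro and 14.10 in vivo (Hexim1), with 13.85 to 14.23 for Hexim1 over the 6 treated libraries. In the 3 primed vehicle libraries they lay at 14.61 to 14.67 and 11.98 to 12.39. The library labelled non-primed 3 had 15.98 for Brd2, just under the lowest treated library, and 14.26 for Hexim1, above the highest treated library, with non-primed 1 and 2 at 14.78 and 14.40 for Brd2 and 12.19 and 12.25 for Hexim1. Over 8350 well expressed genes its values differed from those of in vivo 2 and 3 with an SD of 0.601 and 0.635, and from those of non-primed 1 and 2 with an SD of 0.863 and 0.940. In vivo 2 and 3 were the nearest of all 66 pairs of libraries (SD of 0.123), and in vivo 1 lay nearest to in vitro 1 (SD of 0.231). Counts that rest on these libraries are also given with some of them left out, and values of single members only in part. Primed against non-primed vehicle has no version free of pigment-rich libraries.

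**Figure D1:**
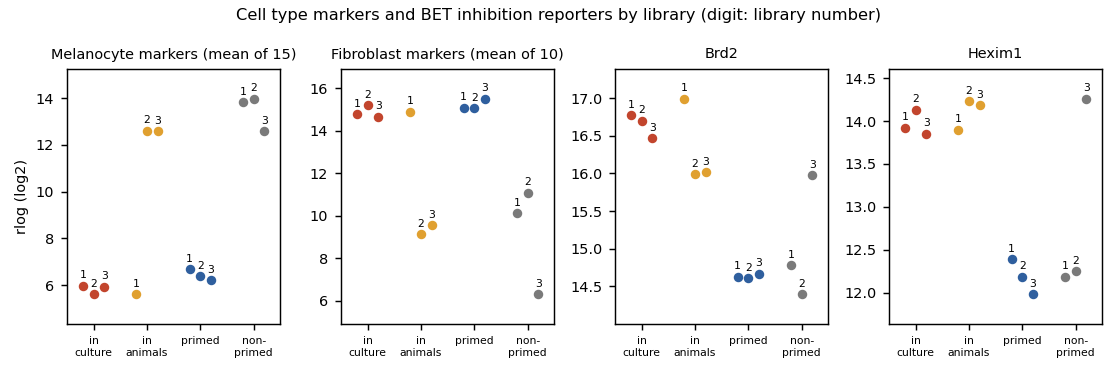
Mean rlog of the melanocyte and fibroblast marker lists, and rlog of Brd2 and Hexim1, by library (log2 units on the vertical axes; groups on the horizontal axis; digits are library numbers). In vivo 2 and 3 and all non-primed libraries sit above 12 in the melanocyte mean, and the library labelled non-primed 3 sits at the treated level of Brd2 and Hexim1.

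Setting in vitro treated cultures against primed vehicle cultures asks about 24 h of BET inhibition in cells that had already grown out of primed paws, and it holds none of the pigment-rich libraries. The labels do not say whether the donors of the in vitro cultures received vehicle injections, as those of the primed vehicle cultures did. Of the 36 members 14 fell and 3 rose (limma on these 6 libraries, Benjamini-Hochberg adjusted p under 0.05 over 16459 genes). Among all genes tested 30.3% were called, 16.9% lower and 13.4% higher, against 38.9% of the members lower and 8.33% higher. The median difference of the members was -0.31, and that of all genes -0.02. The falls took in 10 of the 21 contractile members and 4 of the 15 TGF-β members, and all 3 rises were TGF-β members. Of the members, 17 lay wholly lower and 6 wholly higher in the in vitro libraries, with no overlap between groups, against 25.7% and 22.7% of all genes. The members did not move together: actins, calponins, myosin light chain and its kinase were lower, while filamin A, alpha-actinin 1, caldesmon and the SMAD2 and SMAD4 transcripts differed by between -0.05 and 0.06. In bulk RNA, fewer contractile cells and less RNA per cell cannot be told apart. Median-centring the libraries turned the split of all calls from 44.3% higher to 57.7% higher and quantile normalization to 57.1%. Under median-centring 12 members fell and 4 rose, where 2281 of the 16459 genes were lower and 3116 higher. Under quantile normalization 13 members fell and 4 rose, where 2300 genes were lower and 3064 higher. With the spread of all 12 libraries, pigment-rich ones included, only Skil and Smtn were called among the members, both lower, with 4.51% of all genes called, 2.76% lower and 1.76% higher.

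**Figure D2:**
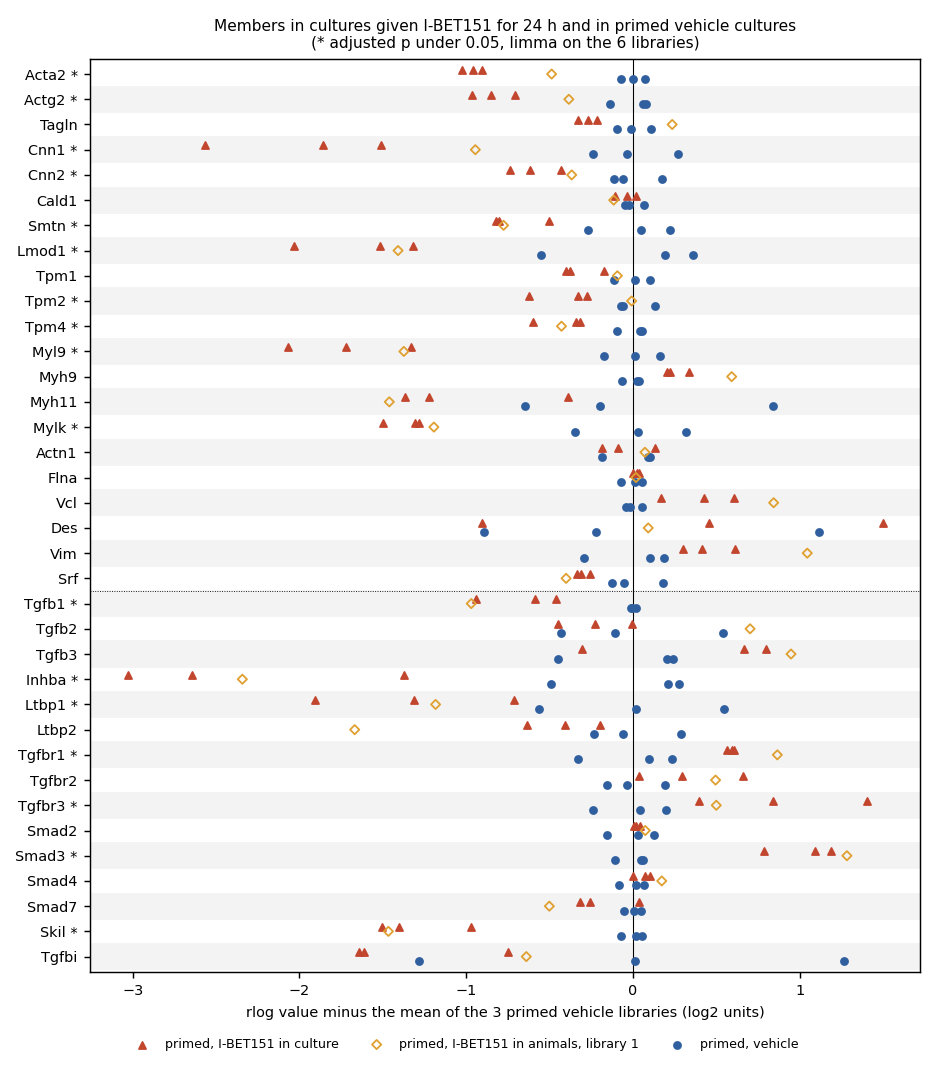
Each member's rlog value minus the mean of the 3 primed vehicle libraries (horizontal axis, log2 units), for the in vitro libraries (triangles), in vivo library 1 (diamonds) and the primed vehicle libraries (circles); genes run down the page with contractile members above the dotted line, and a star marks an adjusted p under 0.05 for in vitro against primed vehicle. The in vitro values of Inhba, Cnn1, Myl9, Lmod1, Mylk and Skil lie to the left of all their controls, and those of Smad3 to the right.

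Both smooth muscle actins fell. Acta2 (chr19:34241090-34255590, GRCm38), smooth muscle alpha-actin and the usual mark of a myofibroblast, had 15.59, 15.53 and 15.65 in the in vitro cultures, against 16.55, 16.63 and 16.48 in primed vehicle. The in vitro values were all lower and the groups did not overlap, with a difference of -0.96 ± 0.10 (SE), a 0.512-fold level (adjusted p = 0.00244). Actg2, smooth muscle gamma-actin, had 9.59, 9.48 and 9.74 in vitro and 10.50, 10.52 and 10.31 in primed vehicle, a difference of -0.84 ± 0.12 (adjusted p = 0.00453). The actin genes share near-identical coding sequence and the handling of shared reads is not given, so how the fall divides among actins is uncertain.

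Among the 6 proteins that bind along the thin filament, 4 fell. Cnn1, smooth muscle calponin, which restrains actomyosin ATPase, had 9.38, 8.33 and 9.04 in vitro, against 11.16, 10.86 and 10.66 in primed vehicle. This was the steepest fall of the contractile members, at -1.98 ± 0.28 or 0.254-fold (adjusted p = 0.00424). Lmod1, leiomodin, which nucleates actin filaments, had 8.42, 7.91 and 8.63 in vitro and 10.13, 10.30 and 9.39 in primed vehicle (-1.62 ± 0.29, adjusted p = 0.00837). Cnn2, the calponin of non-muscle cells, had 13.93, 13.62 and 13.74 in vitro and 14.30, 14.53 and 14.24 in primed vehicle (-0.60 ± 0.12, adjusted p = 0.0117). In all of these the groups stayed apart. Smtn, smoothelin, had 12.07, 11.77 and 11.76 in vitro and 12.31, 12.62 and 12.80 in primed vehicle (-0.71 ± 0.15, adjusted p = 0.0145), and it was no longer called without in vitro 2. Tagln (SM22), often read side by side with Acta2, differed less. Its values were 15.02, 14.96 and 15.07 in vitro and 15.19, 15.40 and 15.28 in primed vehicle. The difference of -0.27 ± 0.10 (95% interval -0.50 to -0.04) did not pass the test (adjusted p = 0.0731), although the groups did not overlap. Tagln is covered by the antisense gene Gm48529 over 3627 bases and the strand setting of the counting is not given, so its value is uncertain. Cald1, caldesmon, differed by -0.04 ± 0.11 and its groups overlapped.

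Tropomyosins, which lie in the groove of the filament, showed small differences. Tpm4 had 15.91, 15.93 and 15.65 in vitro and 16.15, 16.29 and 16.30 in primed vehicle, a difference of -0.42 ± 0.12 (adjusted p = 0.0410). Tpm2 differed by -0.41 ± 0.12 (adjusted p = 0.0396) and Tpm1 by -0.32 ± 0.12, which did not pass (adjusted p = 0.0887). All 3 lay lower with no overlap. These calls were marginal: leaving out any library of the 6 ended the call of Tpm4, and the call of Tpm2 was kept in only 1 of the 6 fits that leave out a library.

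The motor side split by protein. Myl9, the regulatory myosin light chain whose phosphorylation switches on contraction, had 11.67, 11.32 and 12.06 in vitro, against 13.40, 13.55 and 13.22 in primed vehicle. It stood at 0.306-fold (-1.71 ± 0.19, adjusted p = 0.00259). Mylk, the kinase that phosphorylates this light chain, had 8.59, 8.57 and 8.38 in vitro and 9.90, 10.19 and 9.52 in primed vehicle (-1.36 ± 0.19, adjusted p = 0.00432). Substrate and kinase were thus both lower in every treated culture. Myh9, the heavy chain of non-muscle myosin IIA, differed by 0.25 ± 0.11 in the other direction and did not pass (adjusted p = 0.138). Myh11, the smooth muscle heavy chain, ranged from 5.63 to 6.61 in vitro and from 6.35 to 7.84 in primed vehicle (-0.99 ± 0.45, adjusted p = 0.137), with overlapping groups. The mean of 10 vascular smooth muscle and pericyte markers moved with Myh11, at 5.92 to 6.94 in vitro and 6.33 to 7.41 in primed vehicle, with the highest value of each group in the library highest in Myh11. Of these markers 1 of the 7 tested fell, and Myocd, a defining marker, had 0.35 to 1.67 in vitro and 2.18 to 2.97 in primed vehicle. Their part in the result was not tested.

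None of the anchoring and intermediate filament genes passed the test. Vcl, vinculin of focal adhesions, had 15.10, 14.92 and 14.66 in vitro and 14.46, 14.48 and 14.55 in primed vehicle, higher without overlap, with a difference of 0.40 ± 0.12 that just missed the threshold (adjusted p = 0.0502). It was called higher under median-centring, quantile normalization, a filter at a mean of 5 and without in vitro 3. Vcl overlaps Ap3m1 on the other strand by 2235 bases, so its value is uncertain. Flna, the actin cross-linker filamin A, differed by 0.02 ± 0.12 and Actn1 by -0.05 ± 0.14. Vim, vimentin, had a difference of 0.44 ± 0.20 that did not pass (adjusted p = 0.133). Des, desmin, the intermediate filament of muscle, had 7.78, 9.14 and 10.19 in vitro and 9.80, 7.80 and 8.47 in primed vehicle, with a wide interval (-1.32 to 2.02). It ran with skeletal muscle markers, whose mean over 10 genes was 3.71, 4.69 and 5.66 in vitro and 5.69, 4.14 and 4.34 in primed vehicle, and none of the 5 skeletal muscle markers tested passed. Their part in the spread of Des was not tested. Srf itself had 11.43 to 11.50 in vitro and 11.64 to 11.94 in primed vehicle, a difference of -0.30 ± 0.10 that did not pass (adjusted p = 0.0626). Of the members with a CArG box in the printed window, then, Myl9 and Cnn2 fell while Srf and Vcl did not pass, with opposite signs.

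Of the 4 ligands, 2 fell. Inhba (chr13:16011851-16031621), the subunit of activin A, had 13.13, 12.75 and 14.41 in vitro, against 16.06, 15.29 and 15.99 in primed vehicle. This was the largest difference of all 36 members, at -2.35 ± 0.43 or 0.196-fold (adjusted p = 0.00892). Tgfb1, the isoform most tied to fibrosis, had 12.14, 12.49 and 12.62 in vitro and 13.10, 13.07 and 13.07 in primed vehicle. The vehicle cultures were nearly equal and all treated cultures lay below them (-0.66 ± 0.13, adjusted p = 0.0107). Tgfb2 had 10.90, 10.68 and 10.46 in vitro and 11.44, 10.47 and 10.79 in primed vehicle (-0.23 ± 0.25, adjusted p = 0.528). Tgfb3, which overlaps Ttll5 on the other strand by 5149 bases, had 12.74, 12.61 and 11.64 in vitro and 12.15, 12.19 and 11.50 in primed vehicle (0.39 ± 0.32, adjusted p = 0.398). For these the groups overlapped. Latent TGF-β binding protein 1 (Ltbp1), which tethers the latent complex to matrix, had 11.78, 11.18 and 10.58 in vitro and 11.93, 13.04 and 12.51 in primed vehicle (-1.31 ± 0.36, adjusted p = 0.0348), and its call was kept in 2 of the 6 fits that leave out a library. Ltbp2, a microfibril protein of the family, differed by -0.41 ± 0.18 and did not pass (adjusted p = 0.118).

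Of the 3 receptors 2 rose, and so did Smad3, which carries the signal to the nucleus. Tgfbr1, the type I kinase receptor, had 12.66, 12.64 and 12.61 in vitro and 12.28, 12.14 and 11.72 in primed vehicle (0.59 ± 0.15, adjusted p = 0.0244). Tgfbr3, betaglycan, a co-receptor that presents TGF-β2, had 14.63, 15.19 and 14.19 in vitro and 13.55, 13.98 and 13.83 in primed vehicle (0.88 ± 0.25, adjusted p = 0.0381). Both rose without overlap, but the call of Tgfbr1 was kept in 4 and that of Tgfbr3 in 1 of the 6 fits that leave out a library. Tgfbr2, the type II receptor, had 13.76, 14.13 and 13.50 in vitro and 13.43, 13.31 and 13.66 in primed vehicle (0.33 ± 0.17, adjusted p = 0.188). Smad3 (chr9:63646767-63757994) had 14.00, 14.10 and 13.70 in vitro, against 12.97, 12.80 and 12.95 in primed vehicle, a 2.03-fold level (1.02 ± 0.12, adjusted p = 0.00296) kept in all 6 such fits. Smad2 (0.02 ± 0.09) and Smad4 (0.06 ± 0.08), with which it acts, did not pass. Without in vitro 1, and likewise without in vitro 2, Smad3 was the 1 member called higher.

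The inhibitors of the pathway parted. Skil (chr3:31095058-31122577), SnoN, which represses SMAD-driven genes and is itself a fast TGF-β target, had 11.43, 11.33 and 11.87 in vitro, against 12.89, 12.77 and 12.86 in primed vehicle. It fell to 0.408-fold (-1.30 ± 0.14, adjusted p = 0.00259) and was the only member called under every alternative tried. Smad7, the inhibitory SMAD, had 12.54, 12.49 and 12.84 in vitro and 12.81, 12.75 and 12.85 in primed vehicle, overlapping groups with a difference of -0.18 ± 0.11 (adjusted p = 0.249). Tgfbi, a matrix protein named for its induction by TGF-β, had 9.45, 9.48 and 10.34 in vitro and 12.36, 9.81 and 11.10 in primed vehicle. The vehicle libraries spread over more than 2 units and the groups overlapped (-1.33 ± 0.61, adjusted p = 0.140). Without primed 2 the difference passed the test. In all, 11 of the 17 called members were kept in all 6 fits that leave out a library: Acta2, Actg2, Cnn1, Cnn2, Lmod1, Myl9, Mylk, Tgfb1, Inhba, Smad3 and Skil.

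**Figure D3:**
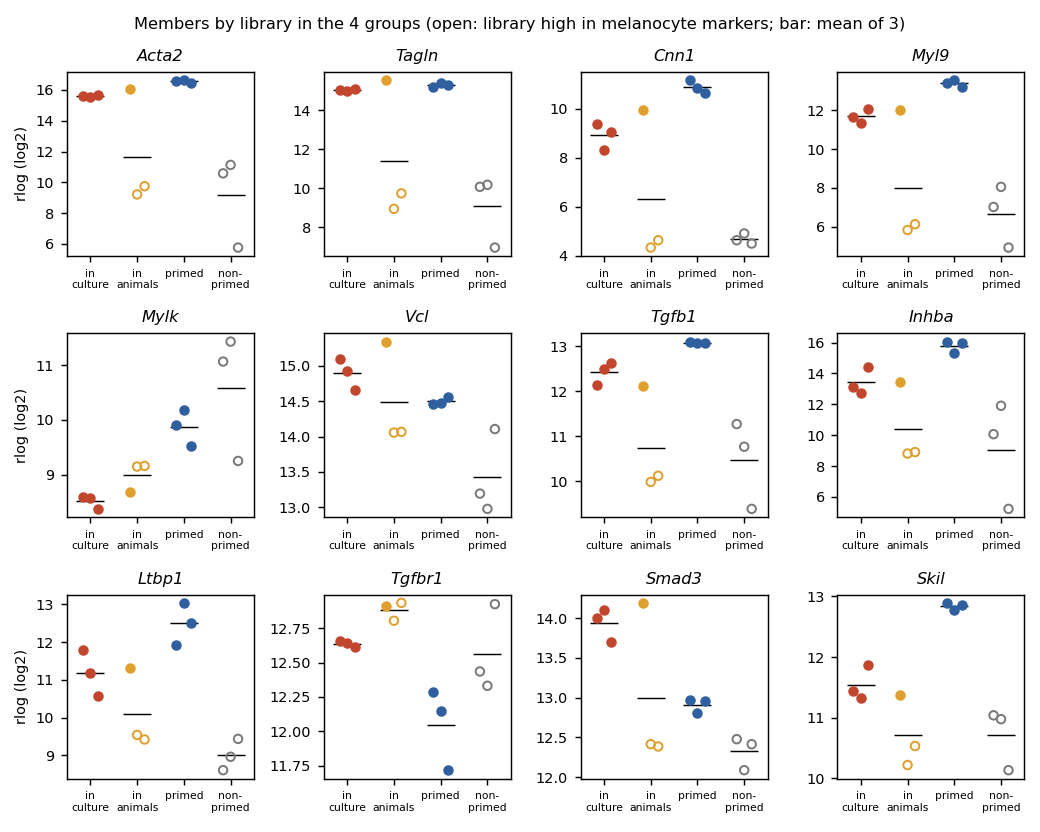
Rlog values (vertical axes, log2 units, each panel on its own scale) of 12 members in the 12 libraries, by group on the horizontal axis; open circles are libraries high in melanocyte markers and bars are group means. Skil, Tgfb1 and Inhba are lower, and Smad3 higher, in the in vitro cultures than in primed vehicle, and the contractile genes Acta2, Tagln and Myl9 drop far lower in every open circle.

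Around the members, the same pathways were read from lists of other genes. Of 25 other actomyosin and adhesion genes 6 rose and 3 fell in vitro (median 0.01). Among those called, Tagln2, a relative of SM22, fell (-0.88 ± 0.13), while the focal adhesion adaptor Pxn rose (0.71 ± 0.12). Of 15 SRF, MRTF, YAP and cytoskeletal regulators 1 rose and 3 fell (median 0.08): Ppp1r12b, a myosin phosphatase subunit, fell by 1.43 ± 0.16, Fhl2, an SRF cofactor and target, fell by 1.27 ± 0.12, and the GTPase gene Rhob rose by 0.87 ± 0.26. Both lists held calls in both directions. Among all genes tested 13.4% were higher and 16.9% lower in vitro. Counts of short lists are given beside these shares and not read as a result about the lists. Of 15 further ligand, latency and activation genes 2 rose and 5 fell (median -0.50), with the activin antagonist Fst at -1.96 ± 0.21 and Gdf11 at 1.96 ± 0.14. Of the 5, Itgb6, a subunit of an integrin that activates latent TGF-β, averaged 3.16 in vitro and 6.21 in primed vehicle, with 2.30 in vivo and 1.64 in non-primed vehicle. It passed the filter on low values through its level in primed vehicle, so its call is no support for a fall of the list. Of 22 receptors and SMAD regulators 3 rose and 6 fell (median -0.08), among them the type I receptor Acvrl1 (-3.05 ± 0.24), the SMAD corepressor Tgif1 (-1.28 ± 0.21) and the decoy receptor Bambi (1.21 ± 0.24).

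Genes widely used as TGF-β readouts were mixed as a list. Of 18 targets 7 fell and 3 rose, with a median of 0.05, where 16.9% of all genes were lower and 13.4% higher. Ccn2, connective tissue growth factor, had 15.39, 14.59 and 15.73 in vitro and 16.60, 16.83 and 17.08 in primed vehicle (-1.60 ± 0.29, adjusted p = 0.00871). Endothelin 1 (Edn1, -2.44 ± 0.29) and the YAP and SRF target Ankrd1 (-1.97 ± 0.26) had the largest falls of the list. For all of these the groups did not overlap. In the same libraries Brd2 rose by 2.01 ± 0.11 and Hexim1 by 1.78 ± 0.13. The fibroblast marker mean was 14.67 to 15.20 in vitro and 15.05 to 15.51 in primed vehicle, with 1 of 10 markers lower, and the macrophage marker mean was 7.57 to 9.52 and 8.24 to 9.19, with none of 9 called. Their part in these results was not tested.

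Primed vehicle cultures were compared with non-primed vehicle cultures to ask what an earlier exposure to crystals left in the cells. Of the 36 members 26 rose and 1, Tgfbr1, fell (limma, all 12 libraries). This was 72.2% of the members higher, where 28.9% of all genes were higher, 22.9% lower and 51.8% called in either direction. Contractile members made up 17 of the rises and TGF-β members 9, and the median of the members was 1.94. Of the members, 31 lay wholly higher and 1 wholly lower, against 33.7% and 28.0% of all genes. In the spread of only these 6 libraries 29 rose and none fell, where 27.7% of all genes were higher and 21.2% lower (48.9% called). Acta2 had 16.55, 16.63 and 16.48 in primed vehicle and 10.58, 11.13 and 5.76 in non-primed vehicle (7.40 ± 1.74, adjusted p = 0.00628). Tagln had 15.19, 15.40 and 15.28 in primed vehicle and 10.07, 10.17 and 6.96 in non-primed vehicle (6.22 ± 1.46, adjusted p = 0.00612). In both the groups were far apart, and the library labelled non-primed 3 was the lowest of all. Inhba (6.71 ± 1.61), Myl9 (6.73 ± 1.40), Ltbp2 (6.72 ± 1.30), Tpm2 (6.64 ± 1.50), Cnn1 (6.21 ± 1.18) and Actg2 (5.48 ± 1.41) rose by similar amounts.

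Every non-primed library was rich in melanocyte transcripts and every primed vehicle library was not, and all 10 fibroblast markers rose with a median of 6.50. Priming, paw side and the cell makeup of the cultures cannot be told apart here. Markers of other cell types moved with these rises: the mean of 10 vascular smooth muscle and pericyte markers was 6.33 to 7.41 in primed vehicle and 3.54 to 4.95 in non-primed vehicle. The macrophage mean was 8.24 to 9.19 in primed vehicle and 3.25 to 6.11 in non-primed vehicle, and the skeletal muscle mean 4.14 to 5.69 in primed vehicle and 2.11 to 2.86 in non-primed vehicle. Their part in the rises was not tested. Some members differed less: Smad2 rose by 0.40 ± 0.13 and Tpm1 by 0.80 ± 0.27, while Smad4 (-0.04 ± 0.12), Srf (0.27 ± 0.13) and Smad3 (0.58 ± 0.40) did not pass. A pair of contractile members had a lower mean in primed vehicle, and neither passed the test. Des had 9.80, 7.80 and 8.47 in primed vehicle and 10.61, 10.40 and 8.72 in non-primed vehicle (-1.22 ± 0.70, adjusted p = 0.164), and was called lower under quantile normalization. Mylk had 9.90, 10.19 and 9.52 in primed vehicle and 11.07, 11.43 and 9.25 in non-primed vehicle (-0.71 ± 0.47, adjusted p = 0.224). Without the library labelled non-primed 3, Mylk was lower in primed vehicle (-1.38 ± 0.24, adjusted p = 0.00373). Leaving out that library kept the counts at 26 higher and 1 lower among 48.9% of all genes called, but Tgfbr1 was then no longer called (-0.33 ± 0.15), the fall of Mylk taking its place, and the difference of Acta2 became 5.70 and that of Inhba 4.79. Scaling shifted the median of all genes from 0.05 to -0.24 under quantile normalization, where 40.4% of all calls were higher, against 55.7% without it. There 23 members were still called higher, where 3858 of the 16459 genes were higher and 5680 lower. Tpm1 and Myh9 were not called under either rescaling, Vcl and Smad2 not under median-centring, and Flna and Myh11 not under quantile normalization. Of the 27 calls 22 were kept in all 6 fits that leave out a library. Tpm1, Myh9 and Vcl were kept in 1, Smad2 in 2 and Tgfbr1 in 3.

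**Figure D4:**
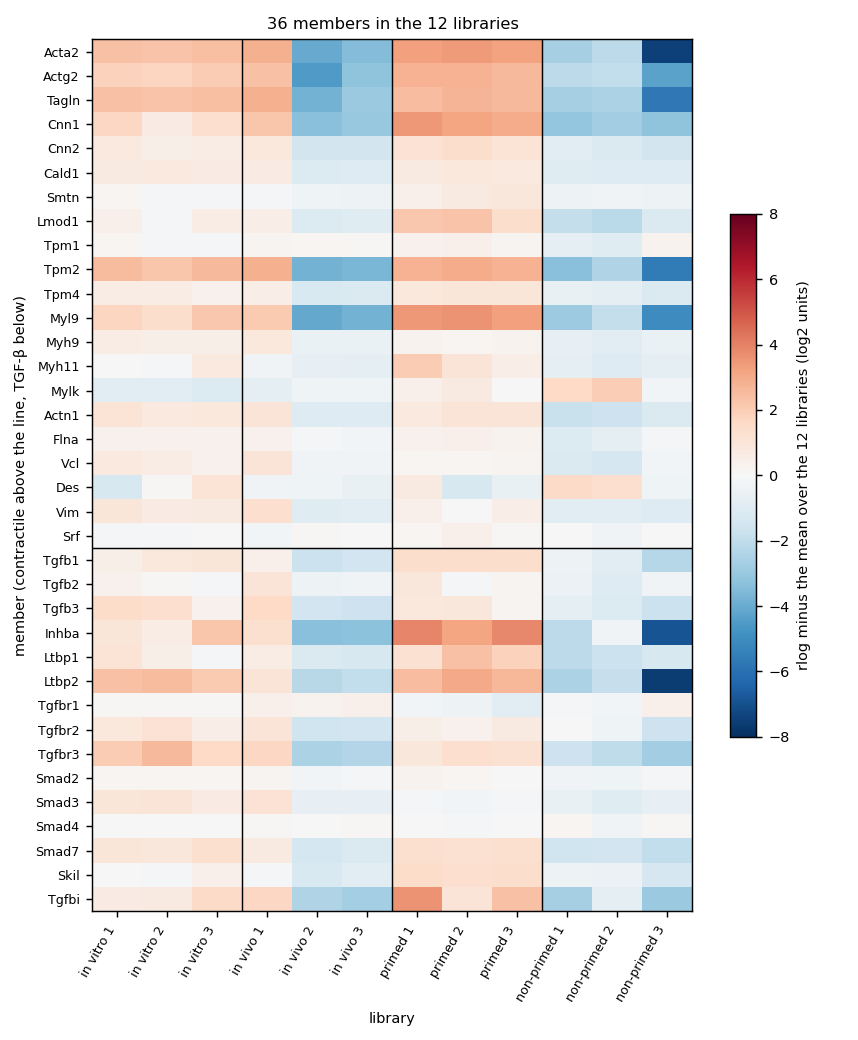
Rlog values of the 36 members (rows) in the 12 libraries (columns, 3 per group), each minus the member's mean over the 12 libraries (colour, log2 units). In vivo 1 resembles the in vitro columns, and in vivo 2 and 3 resemble the non-primed columns, with Acta2, Actg2, Tagln, Tpm2, Myl9, Inhba and Ltbp2 far below the other libraries.

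Cultures of mice treated in vivo were compared with the same primed vehicle cultures that serve the in vitro comparison. Of the members 19 fell and 1, Tgfbr1, rose, which is 52.8% lower against 21.8% of all genes (17.9% higher and 39.7% called in either direction). Of the members 17 lay wholly lower and 2 wholly higher, against 26.4% and 22.7% of all genes. The group was not of a piece. Acta2 had 16.07, 9.22 and 9.75 in vivo against 16.55, 16.63 and 16.48 in primed vehicle (-4.88 ± 1.74, adjusted p = 0.0472), with in vivo 1 near the vehicle level and in vivo 2 and 3 near the non-primed level. The fibroblast mean split the same way, at 14.90, 9.15 and 9.55 in vivo against 15.05 to 15.51 in primed vehicle. The melanocyte mean was 5.62, 12.61 and 12.60 in vivo against 6.21 to 6.69 in primed vehicle. The vascular smooth muscle and pericyte mean was 6.41, 4.57 and 4.66 in vivo and 6.33 to 7.41 in primed vehicle. Their part in these falls was not tested, and in in vivo 2 and 3 treatment and cell makeup cannot be told apart. The count of falls was 27 without in vivo 1, 5 without in vivo 2, 4 without in vivo 3 and 11 without any of the primed vehicle libraries in turn. Shares of all genes in those fits are not given, so these counts only describe how the calls depend on single libraries. In the spread of only the 6 libraries compared the count of falls was 8, with 13.8% of all genes lower, 10.2% higher and 24.0% called. Median-centring turned the split of all calls from 45.1% higher to 57.6% higher and quantile normalization to 60.8%. The median of all genes shifted from -0.05 to 0.13 and 0.19. Under both, 18 members fell and 1 rose. Of the 16459 genes, 2964 were lower and 4029 higher under median-centring, and 2967 lower and 4595 higher under quantile normalization. Smtn, Skil and Tgfbr1 were called under every alternative.

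Set alone against primed vehicle, in vivo 1, which is low in pigment cell transcripts, gives the only in vivo values from a fibroblast-rich culture. In a fit of the 7 fibroblast-rich libraries, where this lone library is assumed to vary like the others, 7 members were lower and 5 higher, with 11.8% of all genes lower, 8.68% higher and 20.4% called. The median of the members was -0.24. Skil, at 11.37 against 12.77 to 12.89 in primed vehicle, differed by -1.47 ± 0.20 (adjusted p = 0.00868), and by -1.30 in vitro. Inhba, at 13.44 against 15.29 to 16.06, differed by -2.34 ± 0.61, and by -2.35 in vitro. Tgfb1 (-0.97 ± 0.18), Myl9 (-1.37 ± 0.27), Mylk (-1.19 ± 0.27) and Smtn (-0.78 ± 0.21) were also lower, where the in vitro differences were -0.66, -1.71, -1.36 and -0.71. Smad3, at 14.19 against 12.80 to 12.97, was higher by 1.28 ± 0.17 and Tgfbr1 by 0.87 ± 0.21, beside 1.02 and 0.59 in vitro. Both sets of differences use the same vehicle libraries. Over the well expressed genes in vivo 1 also lay nearer to in vitro 1 (SD of 0.231) than in vitro 3 did (SD of 0.34). The reason was not tested, so the likeness of the 2 sets is not read as a second, separate result.

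Other members lay at another level in in vivo 1, or passed the test in only 1 of the 2 comparisons. Ltbp2 had 14.43 in in vivo 1, below all in vitro (15.47 to 15.90) and primed vehicle (15.87 to 16.39) libraries, a difference from primed vehicle of -1.67 ± 0.25 (adjusted p = 0.00934). Vim (1.05 ± 0.28), Vcl (0.84 ± 0.18) and Myh9 (0.59 ± 0.16) were higher in in vivo 1. In vitro each also lay wholly higher than in primed vehicle, without passing the test, so the direction was the same. Acta2 was at 16.07 (-0.49 ± 0.15, adjusted p = 0.0554), between the groups, and Cnn1 at 9.95 (-0.94 ± 0.39, adjusted p = 0.132), and neither passed. Tagln, at 15.53, lay above every in vitro and primed vehicle library but did not pass (0.24 ± 0.14). The difference between in vitro and in vivo treatment was not tested, and 1 culture gives no spread of its own.

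In vivo treated cultures were set against non-primed vehicle cultures to ask whether treated primed cells came back to the non-primed state. None of the 36 members and none of the 16459 genes was called by limma, and 3366 genes (20.5%) and 8 members had an unadjusted p under 0.05. Quantile normalization called 2 genes. The groups overlapped for 32 of the 36 members, while those of 17.3% of all genes did not. The interval for Acta2 ran from -1.34 to 6.38, a width that spans a fall and a large rise. Without the library labelled non-primed 3, 3 members were higher and 1 lower. The share of all genes called in that fit is not given, so the members cannot be set against all genes there.

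Setting in vivo 2 and 3 against non-primed 1 and 2 was chosen after the data were seen. All 4 are pigment-rich, and in each the BET reporters go with the label. In that fit 13 members were lower and 7 higher, with 20.6% of all genes lower, 16.8% higher and 37.4% called. Inhba had 8.81 and 8.91 in vivo and 10.07 and 11.91 in non-primed vehicle (-2.13 ± 0.56, adjusted p = 0.0324). Mylk had 9.15 and 9.16 in vivo and 11.07 and 11.43 in non-primed vehicle (-2.10 ± 0.15, adjusted p = 0.000734). Acta2 (-1.38 ± 0.25), Actg2 (-1.84 ± 0.48), Myl9 (-1.56 ± 0.38), Cnn2 (-0.44 ± 0.12), Tpm4 (-0.54 ± 0.09), Tgfb1 (-0.97 ± 0.19) and Skil (-0.63 ± 0.14) were lower too, and each had also fallen in vitro. Des (-1.88 ± 0.15), Tgfbr2 (-1.37 ± 0.13), Tgfb3 (-0.67 ± 0.16) and Tgfbr3 (-0.60 ± 0.16) made up the rest of the falls, and Tgfbr3 had risen in vitro. Tgfbr1 was higher (0.49 ± 0.10), as it was in vitro, but Lmod1 (1.00 ± 0.22) and Ltbp1 (0.70 ± 0.17) were higher here and lower in vitro. Tpm1 (1.00 ± 0.10), Vcl (0.97 ± 0.10), Flna (0.73 ± 0.11) and Actn1 (0.67 ± 0.08) completed the rises, and Smad3 did not pass (0.12 ± 0.14). The melanocyte mean was 12.61 and 12.60 in vivo and 13.82 and 13.97 in non-primed vehicle, and the fibroblast mean 9.15 and 9.55 in vivo and 10.12 and 11.09 in non-primed vehicle. Their part in these differences was not tested, and treatment and priming differ together here.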

How the data were processed

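Polyadenylated RNA of 12 mouse paw cultures was sequenced with a stranded kit, per the labels' protocols. The submitters' processing notes name DESeq2 1.24.0, featureCounts (Subread 1.6.1), STAR 2.6.1c and cutadapt 1.18, and build GRCm38; the sources used here do not give the annotation release or the strand setting. The one deposited table holds the authors' log2 values (rlog), which shrink differences of weakly expressed genes and keep no read counts, so depth is unknown and no counting interval is given.

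From these, genes with a mean rlog of at least 3 (16459 of 55413) were fitted in R 4.3.3 with limma 3.58.1: 1 mean per group, a variance trend, two-sided tests, Benjamini-Hochberg adjustment over all genes kept and an adjusted p under 0.05. All 12 libraries entered each fit, except that in vitro against primed vehicle used its 6 libraries. A member is said to rise or fall only where called. Errors beside differences are standard errors. No exact permutation test was run, since 3 libraries against 3 allow no p under 0.1. The procedure was tested on simulated data with 1 spread per gene for all groups. The unequal spread of these groups was not covered. Groups come from the titles in the labels. Gene positions come from GENCODE on GRCm38. Deviations of same-numbered libraries correlated from -0.435 to 0.369 over 18 pairs, and from -0.125 to 0.069 for primed and non-primed vehicle. Libraries within a group differed in cell makeup, so this check cannot exclude pairing. The main fits used no pairing.

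Members, lists, tests and alternatives were chosen with earlier results of these data known. All members are named. Values in every library are given for up to 16 members called in vitro and for listed ones, and each pathway list names at most 3 called genes of largest difference plus Ccn2. Some genes that this rule takes are not reported here. Alternatives were other filters, no trend, robust moderation, median-centring, quantile normalization, the replicate number as a block, other sets of libraries and each library left out.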

Additional observations from a re-analysis of the deposited data

How the results depend on the processing

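The counts of members called kept within 1.5 times of their main values under most settings. These include in vivo against non-primed vehicle, where most counts stayed at 0, and the 1 rise in vivo against primed vehicle, which stayed in most settings. The 19 falls in vivo against primed vehicle moved further under several sets of libraries. Shares of all genes are given above for only some of these settings. Over members and alternatives 176 calls were lost with their sign kept, 39 were gained, and 14 values turned sign where a call was made before or after. The other 1931 kept their call or had none, 86 of them with a turned sign and no call before or after. For primed against non-primed vehicle the main counts were 26 higher and 1 lower. The lower count was 0 without the filter, 2 with quantile normalization, and 0 in the spread of only the 6 libraries. Leaving out a library gave 22 to 26 higher and 0 to 1 lower. For in vivo against primed vehicle (1 higher, 19 lower) only the 6 libraries gave 8 lower, and the 7 fibroblast-rich libraries gave 5 higher and 7 lower. Leaving out a library gave 1 higher throughout and 4 to 27 lower, and 5 of the 20 calls were kept in every such fit. For in vitro against primed vehicle (3 higher, 14 lower) no filter gave 1 higher, and all 12 libraries gave 0 higher and 2 lower, which share 1 spread with the pigment-rich libraries. Leaving out a library gave 1 to 4 higher and 10 to 12 lower. For in vivo against non-primed vehicle (0 and 0) in vivo 2 and 3 against non-primed 1 and 2 gave 7 higher and 13 lower, and leaving out a library gave 0 to 3 higher and 0 to 1 lower.

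The 14 came under other sets of libraries, and the cause was not tested. Of all 100 turned signs 16 came under median-centring or quantile normalization, such as Myh9 (0.106) and Vim (0.026) in vivo against primed vehicle under quantile normalization. In vivo 1 alone gave Myh9 0.59, Actn1 0.0724, Vcl 0.84 and Vim 1.05, and leaving out a library gave -0.51 (without in vivo 1) to 0.395 for Smad3, against 0.089 with all. In vivo 2 and 3 against non-primed 1 and 2 gave Acta2 -1.38, Actg2 -1.84, Cnn2 -0.44, Tpm4 -0.54, Myl9 -1.56, Tgfb1 -0.97, Tgfb3 -0.67, Inhba -2.13 and Tgfbr3 -0.60. The check of library numbers cannot exclude that they pair the samples. With the replicate block the counts were 28 higher and 0 lower for primed against non-primed vehicle, 1 and 18 in vivo and 3 and 11 in vitro against primed vehicle, and 0 and 0 for in vivo against non-primed vehicle. Without counts, the limit that depth sets on these values is unknown, and 3 libraries a group limit their precision.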
